A study of Mus musculus with 9 samples.

Results

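Glutathione transferases and aldehyde dehydrogenases are 2 groups of detoxifying enzymes, described here in RNA of mouse ovary. Members were chosen by symbol alone, as genes of the alpha (Gsta), mu (Gstm), pi (Gstp), theta (Gstt), omega (Gsto), zeta (Gstz) and kappa (Gstk) transferase classes, the microsomal transferases (Mgst) and the aldehyde dehydrogenases (Aldh), each followed by a number and leaving out pseudogene symbols. The rule found 47 members among the 22544 genes and assembled loci of the table, 26 transferases and 21 dehydrogenases.

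Sequencing covered polyadenylated RNA of 3 groups, named NC, CTX and HBOT in the labels, with 3 libraries a group and 9 in all, and gene levels were given as FPKM, fragments mapped to a gene scaled by its length and by the size of the library. CTX is commonly short for cyclophosphamide, a chemotherapy drug that alkylates DNA and damages growing follicles. According to the series design text the group labelled HBOT received CTX with hyperbaric oxygen, and the labels of NC name no treatment. The labels give no strain, age, dose or timing and do not say whether the 3 libraries of a group stem from different mice, so p-values here measure the spread between libraries only.

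Glutathione transferases join the tripeptide glutathione to reactive electrophiles, such as nitrogen mustards and the aldehydes left by oxidised lipids, and the conjugates are then exported and trimmed. Aldehyde dehydrogenases oxidise aldehydes to acids. Cyclophosphamide is activated by cytochromes, mainly in the liver, and the aldehyde form aldophosphamide either decays to the toxic phosphoramide mustard and acrolein or is oxidised by Aldh1a1 and Aldh3a1 to an inactive acid, while the mustard and acrolein can be bound by glutathione. In the ovary, Aldh1a1, Aldh1a2 and Aldh1a3 also make retinoic acid.

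Several members are close copies, which limits how far reads can be told apart. The first 120 coding bases of Gstp1 and Gstp2 are printed because these pi class genes are the closest of the pairs of equal coding length compared. They differ at 12 of 630 coding bases (98.1% identity, GENCODE M21 on GRCm38). Pairs of unequal length, such as Gsta1 and Gsta2, were not compared over their whole coding sequence. Capitals mark the 6 bases at which these stretches differ.
Gstp1: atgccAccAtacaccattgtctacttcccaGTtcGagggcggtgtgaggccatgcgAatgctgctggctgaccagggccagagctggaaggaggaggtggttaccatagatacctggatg
Gstp2: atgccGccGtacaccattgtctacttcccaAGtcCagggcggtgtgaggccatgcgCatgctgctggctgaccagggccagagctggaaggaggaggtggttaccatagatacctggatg
The same stretch of the mu class genes Gstm1 and Gstm2, the most abundant transferases here, is shown with its 18 differing bases in capitals.
Gstm1: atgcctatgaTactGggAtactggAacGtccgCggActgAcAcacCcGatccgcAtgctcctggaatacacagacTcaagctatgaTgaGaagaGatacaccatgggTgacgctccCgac
Gstm2: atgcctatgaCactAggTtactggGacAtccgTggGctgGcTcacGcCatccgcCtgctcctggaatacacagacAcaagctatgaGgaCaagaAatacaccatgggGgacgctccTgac
Over all protein-coding transcripts of each gene, Gstp1 shared 51.0% of its 50-base words with Gstp2, while Gstm2 shared 0.961% of its words with Gstm1. Of the 47 members, 33 shared no 50-base word with another member and 8 shared at least 10% of theirs, namely Gsta1, Gsta2, Gsta5, Gstm3, Gstp1, Gstp2, Aldh3b2 and Aldh3b3. The values of these 8 are uncertain, since it is not given how reads that fit several genes were counted. Genes outside the 47 members were not compared.

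The 250 bases before the RefSeq transcription start (GRCm38.p6) are shown for 3 of the most abundant transferases, searched on both strands for TGACNNNGC, the core of the antioxidant response element, and GCGTG, the core bound by the aryl hydrocarbon receptor. Matches are in capitals. Of the starts listed, 2 for Gstm1, 1 for Gstm2 and 2 for Mgst1, the first is shown. Gstm1 and Gstm2 are shown because they ranked the libraries alike, and Mgst1 because it held a match to the antioxidant core.
Gstm1, chr3:108017974-108018223, minus strand: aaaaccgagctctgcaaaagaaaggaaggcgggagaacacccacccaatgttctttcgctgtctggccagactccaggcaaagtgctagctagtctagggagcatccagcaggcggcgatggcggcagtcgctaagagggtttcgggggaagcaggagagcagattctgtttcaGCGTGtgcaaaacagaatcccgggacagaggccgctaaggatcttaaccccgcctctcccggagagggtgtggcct
Gstm2, chr3:107986421-107986670, minus strand: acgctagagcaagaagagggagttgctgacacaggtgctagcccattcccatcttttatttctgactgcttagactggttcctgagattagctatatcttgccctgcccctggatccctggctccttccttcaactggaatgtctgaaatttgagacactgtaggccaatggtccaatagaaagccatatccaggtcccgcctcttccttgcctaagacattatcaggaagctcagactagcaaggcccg
Mgst1, chr6:138140277-138140526, plus strand: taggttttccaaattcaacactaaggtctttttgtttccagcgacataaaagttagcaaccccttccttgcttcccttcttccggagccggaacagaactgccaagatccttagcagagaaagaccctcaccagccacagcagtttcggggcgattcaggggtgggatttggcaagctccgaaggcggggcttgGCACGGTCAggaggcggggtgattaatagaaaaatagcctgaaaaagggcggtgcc
Windows, which also run a little past the transcription start, were found for 38 of the 47 members, 49 windows in all. TGACNNNGC was in 12.2% of them, in Aldh1a2, Aldh9a1, Gsta3, Gstm5, Gstm7 and Mgst1, against 12.4% of all 32851 windows, and GCGTG in 30.6% against 32.4%. The share with either motif was thus close to that of promoters in general.

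The libraries carried ovarian markers. All 8 granulosa cell markers, all 6 theca and interstitial markers and all 7 oocyte markers passed the filter of 1 FPKM in at least 3 of the 9 libraries. Of 5 oviduct markers 3 stayed under 1 FPKM everywhere, and Tppp3 ranged from 6.70 FPKM in NC replicate 2 to 31.0 in CTX replicate 1. Ovgp1 was highest in NC replicate 3 (10.1 FPKM, 1.99 to 3.86 elsewhere). HBOT replicate 2 stood apart. Across genes its closest library had a rank correlation of 0.907 with it, against at least 0.977 for the closest library of each of the other 8, and its 8 ovulatory response markers summed to 881 FPKM against 2.73 to 5.52 elsewhere. Of 5 adrenal markers, Cyp11b2, Cyp21a1 and Mc2r stayed under 1 FPKM everywhere, while in HBOT replicate 2 Akr1b7 reached 571 FPKM (3.74 or less elsewhere) and Cyp11b1 10.9 (4.07 or less elsewhere). Of 5 fat cell markers, 3 exceeded 1 FPKM in CTX replicate 1 alone, Adipoq (5.24 FPKM), Cidec (3.33) and Cfd (39.8), of which Adipoq and Cidec were listed at 0 in the other 8. Plin1, which steroid-making cells also express, was at 23.9 FPKM there, 0.698 in HBOT replicate 2 and 6.86 to 20.1 in the other 7, and Lep stayed under 1 FPKM in all. The 6 corpus luteum markers summed to 2799 to 3460 FPKM in NC, 515 to 1027 in CTX and 788, 1185 and 3667 in HBOT replicates 1 to 3. Akr1c18 made up most of that sum in NC (2127 to 2509 FPKM) and stood at 125 to 289 in CTX. Of the 6, only Lhcgr had a higher mean in CTX (118 FPKM) than in NC (85.7). The 7 oocyte markers summed to 111 to 161 FPKM in NC, 177 to 273 in CTX and 258 to 292 in HBOT. The 5 erythroid markers summed to 62.8 to 207 FPKM in NC, 387 to 816 in CTX and 317 to 735 in HBOT, and the 5 macrophage markers to 72.0 to 80.3, 88.9 to 124 and 90.5 to 136. Of the macrophage markers, Cd68 had the lower mean in CTX (21.9 FPKM, against 22.9 in NC). The 5 stroma markers summed to 342 to 428 FPKM in NC, 247 to 322 in CTX and 261 to 384 in HBOT. Of 5 hepatocyte markers, Cyp2e1 reached 9.07 FPKM in CTX replicate 1 (0.383 or less elsewhere) and Alb 6.21 in NC replicate 2 (0.540 or less elsewhere). Apoa1 was highest in HBOT replicate 2 (69.5 FPKM, 16.5 to 66.3 elsewhere). So were Ahsg (5.73, 1.97 or less elsewhere) and Serpina1a (4.08, 1.55 or less elsewhere). Whether any of these moved the members was not tested, and in bulk tissue fewer cells of a type and less RNA per cell cannot be told apart.

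Of the 47 members, 39 passed the filter, 22 transferases and 17 dehydrogenases. The other 8 were barely present. The highest value in any library was 1.38 FPKM for Gsta5, 1.196 for Gstm3, 1.03 for Gstp3, 0.0875 for Gstt4, 0.282 for Aldh1l2, 0.683 for Aldh3a1, 0.621 for Aldh3b3 and 0.154 for Aldh8a1. Aldh3a1, known with Aldh1a1 for oxidising aldophosphamide, thus stayed under 1 FPKM in every library.

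A few genes carried most of the RNA of these families. Gstm1, Gstm2, Mgst1, Gstp1 and Gsta4 made up 81.0% of the summed transferase FPKM over the 9 libraries, and Aldh1a1 and Aldh2 made up 67.5% of the summed dehydrogenase FPKM. All transferases together summed to 1355, 1243 and 1767 FPKM in NC, 1902, 1388 and 1631 in CTX and 1555, 1551 and 2163 in HBOT. All dehydrogenases summed to 1071, 918 and 1063 FPKM in NC, 896, 897 and 978 in CTX and 861, 556 and 1321 in HBOT. Both sums overlapped between all groups, and the lowest and the highest dehydrogenase sum were both in HBOT, in replicates 2 and 3.

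**Figure D1:**
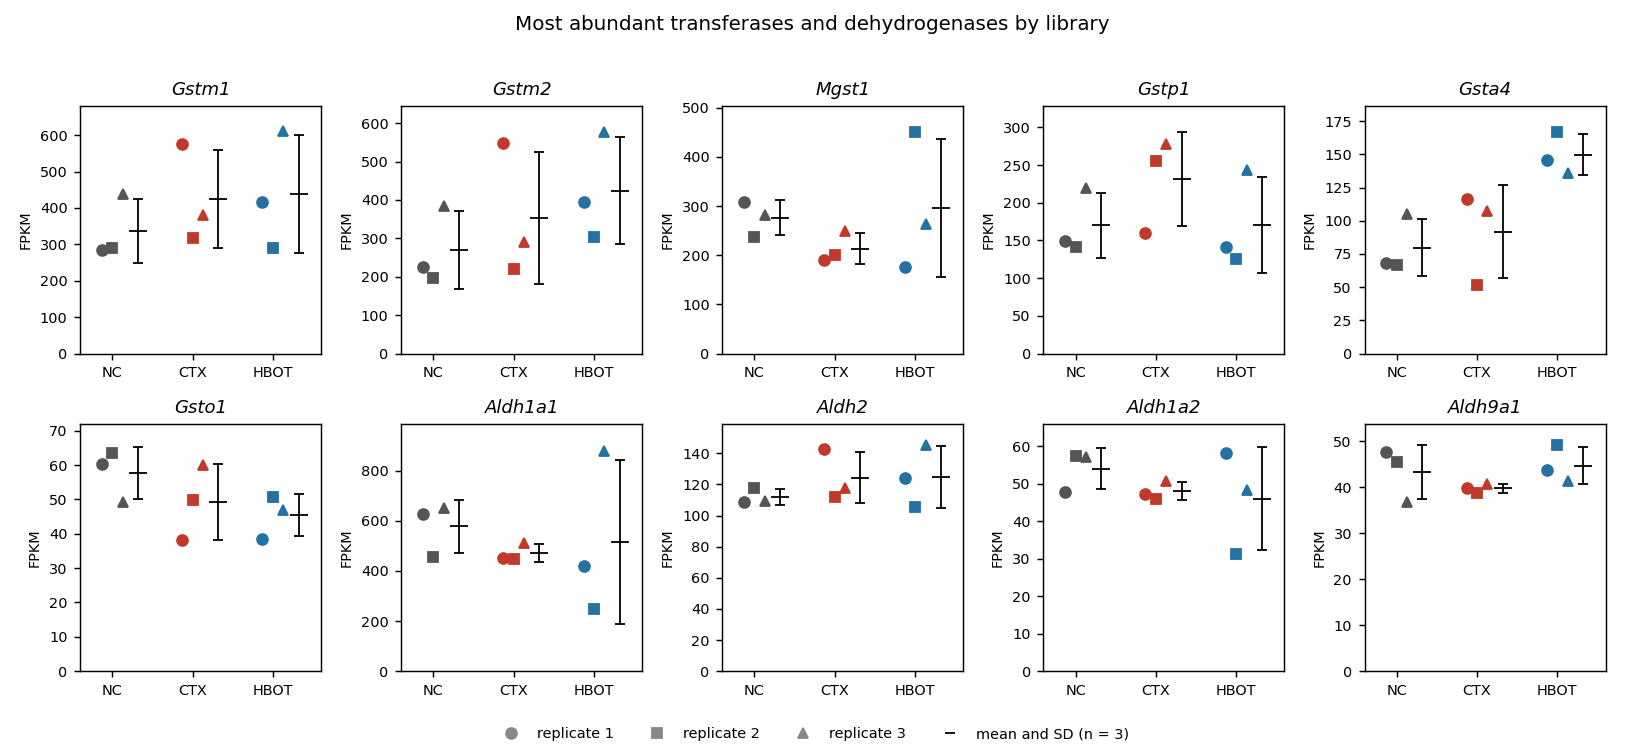
FPKM of 10 abundant members (vertical axes, each from 0) in NC, CTX and HBOT. Symbols are the 3 libraries of a group, and the black bar is the mean with its SD. Gsta4 in HBOT (136 to 167 FPKM) lay above all libraries of the other groups, and in the other panels the groups overlap, apart from Aldh9a1, where HBOT lay just above CTX.

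The mu class held the 2 most abundant transferases. Gstm1 stood at 285, 289 and 439 FPKM in NC replicates 1 to 3, 575, 319 and 381 in CTX and 416, 290.0 and 611 in HBOT. Gstm2 stood at 226, 197 and 385 FPKM in NC, 547, 220.3 and 292 in CTX and 394, 304 and 576 in HBOT. For both genes NC replicate 3, CTX replicate 1, HBOT replicate 1 and HBOT replicate 3 were the 4 highest libraries, so the scatter within a group was shared by the pair and the groups overlapped. The same 4 libraries were the highest for Gstm5, also of the mu class, at 29.0, 31.1 and 34.2 FPKM in NC, 40.1, 30.1 and 30.0 in CTX and 38.2, 28.8 and 40.3 in HBOT. Between HBOT and NC the log2 fold change was 0.34 ± 0.31 (SE) for Gstm1 and 0.67 ± 0.38 for Gstm2 (limma adjusted p = 0.647 and 0.503).

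Gstm7, also of the mu class, stood at 25.3, 28.6 and 18.7 FPKM in NC, 18.0, 30.2 and 22.7 in CTX and 15.0, 5.85 and 19.5 in HBOT, with replicate 2 the lowest of all 9. Gstm4, at 6.29, 6.72 and 6.47 FPKM in NC, 6.78, 5.07 and 5.76 in CTX and 4.21, 1.59 and 5.27 in HBOT, had all HBOT libraries below all NC libraries. Gstm6 was given by its group means, 8.07 ± 1.77 FPKM (SD, n = 3) in NC, 11.9 ± 6.89 in CTX and 11.5 ± 3.70 in HBOT, its highest library being CTX replicate 1.

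In the alpha class, Gsta4, the enzyme that conjugates hydroxynonenal, a product of lipid peroxidation, stood at 68.2, 66.3 and 105 FPKM in NC, 116, 51.7 and 108 in CTX and 146, 167 and 136 in HBOT. The HBOT libraries lay above all others. Gsta2 stood at 15.0, 7.62 and 13.4 FPKM in NC, 19.0, 15.6 and 10.1 in CTX and 20.6, 22.8 and 16.9 in HBOT, with HBOT above NC and overlapping CTX. Gsta3, which detoxifies aflatoxin in mouse liver, had means of 4.29 ± 0.857 FPKM (SD, n = 3) in NC, 4.40 ± 1.079 in CTX and 5.38 ± 1.43 in HBOT. Gsta1 passed the filter through only 3 libraries above 1 FPKM, NC replicate 3 (2.41), HBOT replicate 2 (1.35) and HBOT replicate 3 (1.77), and shared 49.6% of its 50-base words with other members. Summed over its 5 genes, the alpha class gave 88.3, 79.6 and 125 FPKM in NC, 141, 72.7 and 121 in CTX and 172, 196 and 163 in HBOT, most of it Gsta4.

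The pi class gene Gstp1 stood at 149.7, 141 and 219.5 FPKM in NC, 160.4, 256 and 278 in CTX and 142, 126 and 243 in HBOT. Its near copy Gstp2 stood at 10.2, 12.98 and 30.1 FPKM in NC, 16.4, 36.1 and 30.2 in CTX and 19.8, 18.0 and 32.5 in HBOT. Both were highest in NC replicate 3, CTX replicates 2 and 3 and HBOT replicate 3, and since the genes differ at few bases, reads of the abundant gene could count for the other.

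Among the microsomal transferases, Mgst1, an enzyme of the endoplasmic reticulum and outer mitochondrial membrane, stood at 308, 238 and 282 FPKM in NC, 191, 200.03 and 249 in CTX and 175, 451 and 264 in HBOT. Its highest value was in HBOT replicate 2 and its lowest in HBOT replicate 1, so the HBOT group spanned the other groups. Mgst2, which can make leukotrienes, stood at 64.4, 54.0 and 60.1 FPKM in NC, 17.6, 53.8 and 44.3 in CTX and 31.4, 8.75 and 37.5 in HBOT. All NC libraries were above all CTX and HBOT libraries, CTX replicate 2 (53.8 FPKM) lying just under NC replicate 2 (54.0). Mgst3 stood at 20.1, 19.8 and 18.2 FPKM in NC, 26.8, 24.4 and 21.8 in CTX and 21.5, 16.3 and 22.0 in HBOT, with CTX above NC.

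The kappa enzyme Gstk1, found in mitochondria and peroxisomes, stood at 14.2, 14.2 and 16.3 FPKM in NC, 19.8, 17.5 and 20.3 in CTX and 15.9, 11.3 and 14.7 in HBOT. CTX lay above both other groups. Gstz1, an isomerase of tyrosine breakdown, stood at 27.1, 26.7 and 26.2 FPKM in NC, 26.9, 23.8 and 25.4 in CTX and 26.0, 9.22 and 28.1 in HBOT, so 8 libraries were within a narrow range and HBOT replicate 2 far below it. The omega enzyme Gsto1, which reduces dehydroascorbate, stood at 60.4, 63.7 and 49.3 FPKM in NC, 38.1, 49.7 and 60.1 in CTX and 38.6, 50.6 and 46.9 in HBOT, overlapping between groups. Gsto2 stayed under 1.4 FPKM, and its means were 0.848 ± 0.0870 (SD, n = 3) in NC, 1.13 ± 0.375 in CTX and 0.993 ± 0.307 in HBOT. The theta genes Gstt1, Gstt2 and Gstt3 had means of 18.0, 14.8 and 2.97 FPKM in NC, 21.7, 19.2 and 3.64 in CTX, and 17.1, 13.7 and 2.34 in HBOT. For all 3 of them HBOT replicate 2 was the lowest library, with 11.9, 7.31 and 1.57 FPKM.

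Aldh1a1, which makes retinoic acid and oxidises aldophosphamide, was the most abundant member of all. It stood at 626, 457 and 650.2 FPKM in NC, 451, 448 and 511 in CTX and 420.4, 248 and 879 in HBOT, so that both the lowest and the highest library belonged to HBOT. Aldh1a2, also a retinaldehyde oxidase, stood at 47.7, 57.3 and 57.1 FPKM in NC, 47.3, 46.0 and 50.7 in CTX and 58.4, 31.3 and 48.4 in HBOT. Aldh1a3, the third such enzyme, was low, with means of 2.29 ± 0.0478 FPKM (SD, n = 3) in NC, 2.23 ± 0.214 in CTX and 1.80 ± 0.393 in HBOT, and HBOT lay below both other groups. Aldh1a7, a close relative of Aldh1a1, ranged from 0.0572 to 3.33 FPKM, both within NC.

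Aldh2, the mitochondrial enzyme that clears acetaldehyde, stood at 108, 118 and 109 FPKM in NC, 143, 112 and 118 in CTX and 124, 105 and 145 in HBOT. The related Aldh1b1 stood at 20.8, 25.6 and 18.1 FPKM in NC, 17.9, 25.2 and 32.6 in CTX and 23.2, 3.63 and 20.7 in HBOT, the value of HBOT replicate 2 standing alone. The fatty aldehyde dehydrogenase Aldh3a2 stood at 27.9, 26.5 and 27.7 FPKM in NC, 27.3, 26.8 and 29.3 in CTX and 28.9, 17.4 and 25.3 in HBOT, again with that library the lowest. Aldh3b1, which oxidises lipid aldehydes at membranes, stood at 44.9, 42.3 and 27.3 FPKM in NC, 18.2, 54.3 and 50.04 in CTX and 25.5, 6.40 and 22.6 in HBOT. HBOT lay below NC, and the low CTX value was in replicate 1, the library with fat cell markers. A link with these markers was not tested. Aldh3b2 passed the filter through exactly 3 libraries, NC replicates 1 and 2 (2.14 and 2.16 FPKM) and HBOT replicate 1 (1.55), and stood at 0.0760 FPKM or less in the other 6. Its relative Aldh3b3 was highest in the same 3 libraries, and Aldh3b2 shares 24.2% of its 50-base words with other members.

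Of the dehydrogenases of amino acid breakdown, Aldh4a1 of the proline route stood at 18.8, 24.6 and 13.9 FPKM in NC, 12.8, 16.2 and 22.4 in CTX and 10.95, 4.28 and 12.6 in HBOT. All HBOT libraries lay below all NC and CTX libraries. Aldh6a1, of valine breakdown, stood at 30.5, 30.1 and 27.3 FPKM in NC, 35.1, 28.7 and 27.2 in CTX and 28.2, 11.5 and 28.9 in HBOT, with only HBOT replicate 2 apart. Aldh7a1, of lysine breakdown, stood at 30.2, 31.3 and 35.8 FPKM in NC, 38.1, 33.0 and 26.3 in CTX and 33.4, 25.9 and 38.4 in HBOT, with the groups overlapping. Aldh9a1, which takes part in carnitine synthesis, stood at 47.8, 45.6 and 36.7 FPKM in NC, 39.8, 38.7 and 40.8 in CTX and 43.7, 49.2 and 41.3 in HBOT, and HBOT lay just above CTX. The remaining dehydrogenases had NC, CTX and HBOT means of 13.4, 18.3 and 15.6 FPKM for Aldh16a1, and 16.2, 17.5 and 18.5 for Aldh18a1 of proline synthesis. They were 19.2, 21.9 and 14.3 for the folate enzyme Aldh1l1, and 6.69, 6.70 and 5.47 for Aldh5a1, which completes the breakdown of the transmitter GABA. Aldh16a1 had all CTX libraries above all NC libraries.

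**Figure D2:**
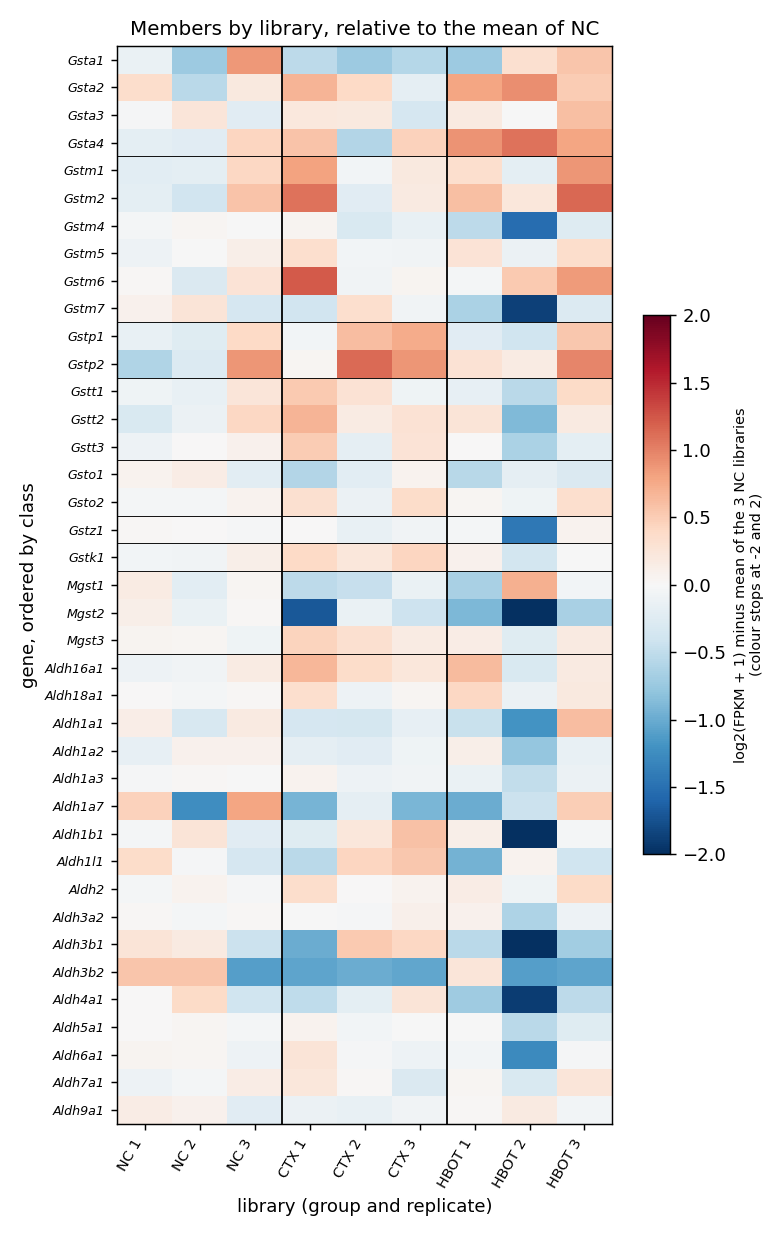
Each tested member (rows, by class) in each of the 9 libraries (columns). Colour gives log2(FPKM + 1) minus the mean of the 3 NC libraries, red higher and blue lower. HBOT replicate 2 is the bluest column, and CTX replicate 1 shares low Mgst2 and Aldh3b1 with it.

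Much of the spread came from HBOT replicate 2. It was the lowest of the 9 libraries for 24 of the 39 tested members (61.5%, against 44.1% of all tested genes) and the highest for 4 (10.3% against 19.5%). It lay at least 1 log2 unit under the median of the other 8 for 9 members (23.1% against 8.28%) and at least 1 above it for 0 (0% against 4.18%). By family it was the lowest library for 13 of 17 dehydrogenases (76.5%) and 11 of 22 transferases (50%). The transferase share was near the 44.1% of all tested genes. The 4 members highest in this library were Mgst1 (451 FPKM), Gsta4 (167), Gsta2 (22.8) and Aldh9a1 (49.2).

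CTX against NC sets ovaries given the drug beside those without a named treatment. Gstk1 had the smallest p among the members, at a log2 fold change of 0.35 ± 0.14 (SE, 95% interval 0.030 to 0.67), with all 3 CTX libraries above NC (limma adjusted p = 0.597). The difference was -0.75 ± 0.54 (SE) for Mgst2, 0.31 ± 0.14 for Mgst3, 0.68 ± 0.42 for Gstp2 and -0.28 ± 0.38 for Aldh1a1, and the intervals of these 4 spanned 0. By limma on log2(FPKM + 1), 0 of 39 members and 0 of 13338 genes (0%) were called at an adjusted p under 0.05. An unadjusted p under 0.05 was found for 1 of 39 members, which was higher in CTX, against 7.98% of all genes (5.24% higher and 2.74% lower). That count became 3 when NC replicate 3, HBOT replicate 1 or HBOT replicate 2 was left out (6.63%, 7.23% and 15.8% of all genes). It became 2 in the fit lacking CTX replicate 2 (6.94%) and 0 in the fit lacking NC replicate 1 (5.45%). The libraries of CTX and NC did not overlap for 4 of 39 members, Aldh16a1, Gstk1 and Mgst3 higher and Mgst2 lower, against 21% of all genes (13.2% higher and 7.8% lower). Means of log2(FPKM + 1) were higher in CTX for 15 of 22 transferases and 8 of 17 dehydrogenases, 23 of 39 in all, against 59.5% of all genes. The median log2 fold change was 0.041 over the members and 0.046 over all genes. The counts of members were thus at or below those of genes in general. When HBOT replicate 2 was left out of the fit, 0 members and 0.06% of genes were called. Aldh16a1, Gstk1 and Mgst3 then had an unadjusted p under 0.05 with the higher mean in CTX, 3 of 39 members against 10.1% of all genes, and 0 members had one with the lower mean, against 5.66%.

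HBOT against CTX bears on what was different when oxygen was added to the drug. Gstk1 (-0.44 ± 0.14, SE), Gstm7 (-0.88 ± 0.38) and Aldh4a1 (-0.90 ± 0.37) had a lower level in HBOT and Gsta4 (0.78 ± 0.30) a higher level, each at an unadjusted p under 0.05 and a limma adjusted p of 0.710. No member and no gene was called (0 of 39, and 0% of all genes). Those 4 of 39 members stand against 6.09% of all genes, with 1 higher against 2.41% and 3 lower against 3.67%. The count fell to 2 without NC replicate 1, CTX replicate 2 or HBOT replicate 2 (4.48%, 3.61% and 5.22% of all genes). It rose to 7 without CTX replicate 1 (7.95%), 9 without HBOT replicate 3 (11.7%) and 11 without HBOT replicate 1 (9.74%). The groups did not overlap for 5 of 39 members, Gsta4 and Aldh9a1 higher and Gstk1, Aldh4a1 and Aldh1a3 lower, against 10.2% of all genes (3.76% higher and 6.44% lower). Means of log2(FPKM + 1) were higher in HBOT for 15 of 39 members, against 38.4% of all genes. The median log2 fold change was -0.20 over the members and -0.067 over all genes. Without HBOT replicate 2 these medians were -0.018 and -0.0030, and 19 of 39 members had the higher log2 mean in HBOT, against 49.2% of all genes. The fold change without it was -0.41 for Gstm7, -0.48 for Aldh4a1 and 0.70 for Gsta4, all of them then above an unadjusted p of 0.05. Gstk1 (-0.31) and Aldh1l1 (-0.81) were under it, 2 lower members against 2.17% of all genes, beside 0 higher members against 3.05%.

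HBOT against NC spans both treatments and uses the same libraries as the comparisons before. Gsta4 (0.93 ± 0.30, SE) and Gsta2 (0.74 ± 0.28) were at a higher level in HBOT at an unadjusted p under 0.05. Aldh4a1 (-1.05 ± 0.37), Gstm4 (-0.77 ± 0.29), Mgst2 (-1.39 ± 0.54) and Gstm7 (-0.92 ± 0.38) were at a lower level by the same measure. These 6 of 39 stand against 11.9% of all genes, 2 higher against 6.22% and 4 lower against 5.65%. The count fell to 0 without NC replicate 2 and to 3 without NC replicate 1 or HBOT replicate 2, against 6.78%, 6.6% and 13.2% of all genes. It rose to 7 without NC replicate 3 or CTX replicate 1 (9.64% and 12.2%) and to 8 without HBOT replicate 1 or HBOT replicate 3 (13.7% and 15.6%). By limma 0 members and 0% of all genes were called, and the smallest adjusted p among the members was 0.338, for Gsta4. The groups did not overlap for 7 of 39 members, against 20.5% of all genes. Gsta2 and Gsta4 were higher (10.9% of all genes) and Gstm4, Mgst2, Aldh1a3, Aldh3b1 and Aldh4a1 lower (9.6%). The means of log2(FPKM + 1) of 16 of 39 members were higher in HBOT, against 47.6% of all genes, and without HBOT replicate 2 those of 21, against 58.2%. The difference without that library was 0.85 for Gsta4, -0.39 for Gstm4 and -0.62 for Aldh4a1, which kept an unadjusted p under 0.05, 1 higher member against 8.82% of all genes and 2 lower members against 4.34%. It was 0.65 for Gsta2, -0.77 for Mgst2 and -0.46 for Gstm7, which did not.

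**Figure D3:**
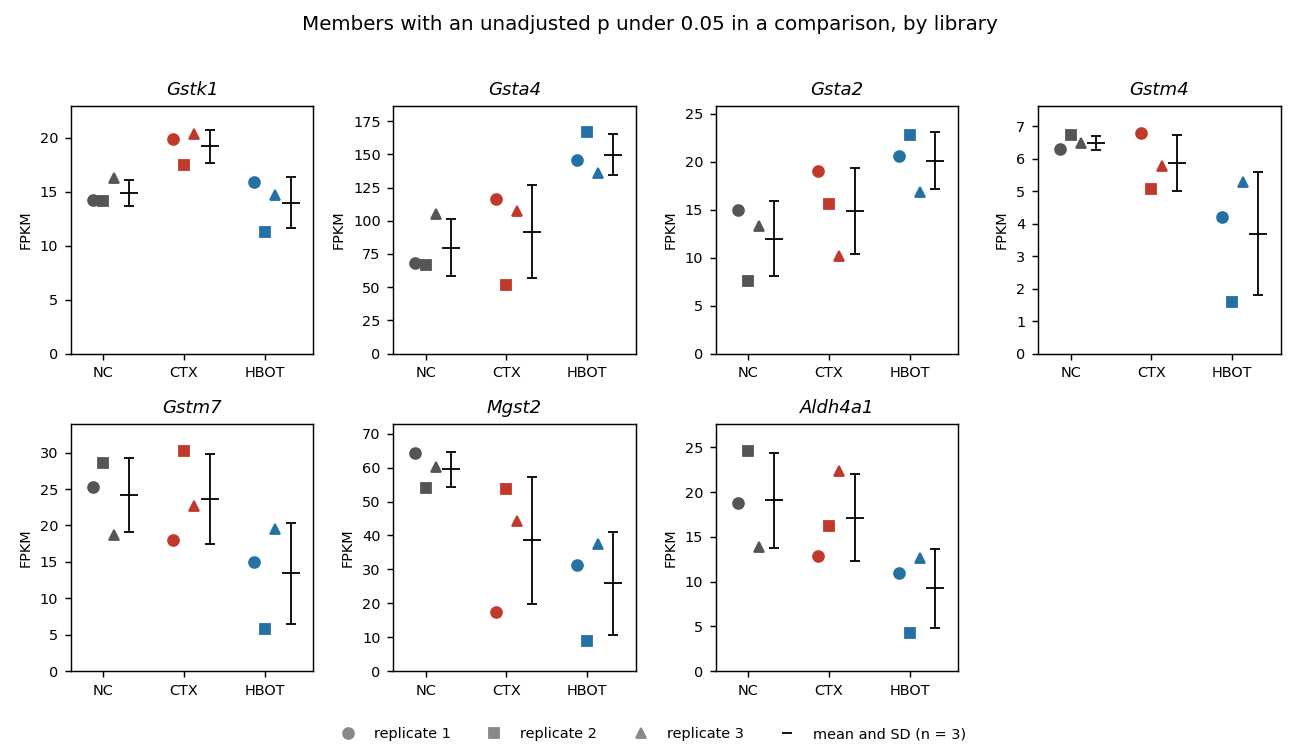
FPKM (vertical axes, from 0) of the 7 members with an unadjusted p under 0.05 in a comparison, by group. Symbols are libraries, bars are mean and SD. HBOT replicate 2 is the lowest library for Gstk1, Gstm4, Gstm7, Mgst2 and Aldh4a1 and the highest for Gsta4 and Gsta2.

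**Figure D4:**
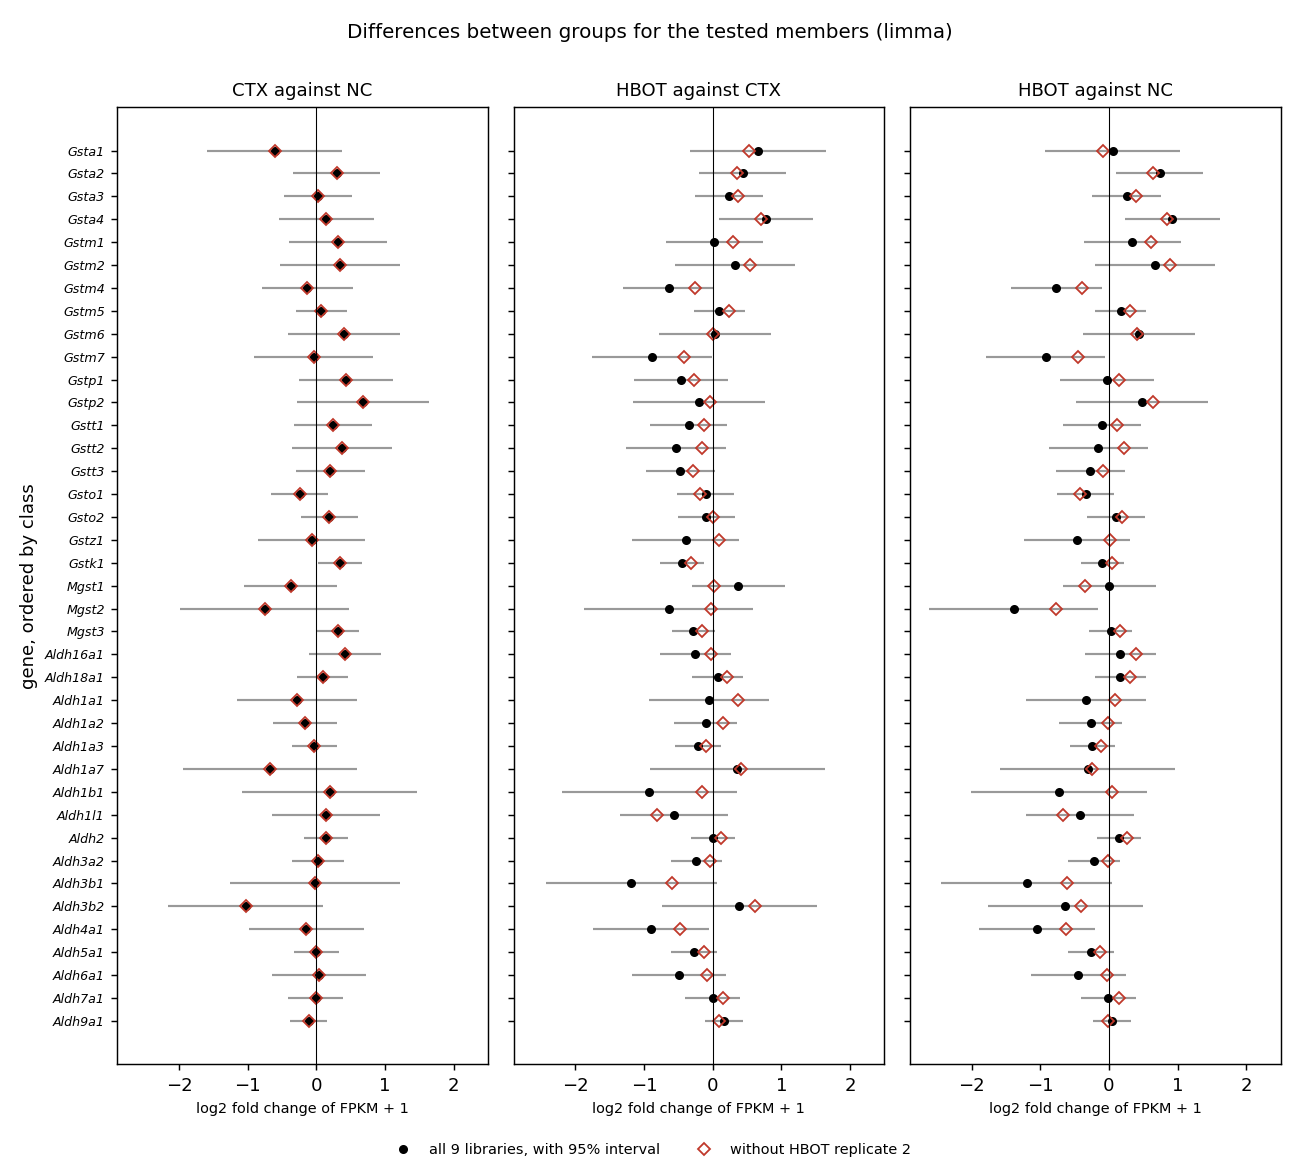
Log2 fold change of FPKM + 1 (horizontal axes) of the 39 tested members in the 3 comparisons, black points with 95% intervals from limma and red diamonds without HBOT replicate 2. Most intervals span 0, and the diamonds move towards 0 for Mgst2, Aldh3b1 and Aldh4a1 in both HBOT comparisons.

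Genes that supply glutathione and export its conjugates were read from a list of 22, of which 17 passed the filter. At an unadjusted p under 0.05 there was 1 of 17 in CTX against NC, 3 in HBOT against CTX and 5 in HBOT against NC (against 7.98%, 6.09% and 11.9% of all genes), and 0 were called in any comparison. Cth, which makes cysteine, stood at 4.76, 5.26 and 4.20 FPKM in NC, 3.04, 4.18 and 4.45 in CTX and 2.16, 2.19 and 2.84 in HBOT, all HBOT libraries below all others (-0.76 ± 0.16 against NC, SE, limma adjusted p = 0.241). Cbs, the enzyme before it, stood at 5.41, 6.27 and 5.49 FPKM in NC, 26.1, 9.14 and 12.7 in CTX and 11.8, 6.60 and 9.71 in HBOT, so that NC lay below both other groups. Ggct, which turns over glutathione breakdown products, stood at 8.93, 9.07 and 7.26 FPKM in NC, 13.4, 11.1 and 12.8 in CTX and 13.05, 41.7 and 17.4 in HBOT. Slc3a2, the heavy chain of amino acid carriers including the cystine carrier, stood at 176, 169.8 and 206 FPKM in NC, 161, 136 and 146 in CTX and 182, 369 and 193 in HBOT.

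Of 23 genes of cyclophosphamide activation and other aldehyde enzymes, 12 stayed under 1 FPKM in every library, and these were the Cyp2a, Cyp2b, Cyp2c and Cyp3a members. Unadjusted p was under 0.05 for 1 of the 11 tested in CTX against NC, 2 in HBOT against CTX and 1 in HBOT against NC, with 0 called (all genes 7.98%, 6.09% and 11.9%). Adh7, a retinol and alcohol dehydrogenase, stood at 7.66, 6.97 and 6.48 FPKM in NC, 0.654, 2.70 and 0.567 in CTX and 3.15, 15.8 and 2.23 in HBOT, each CTX library being below each NC library (-1.92 ± 0.58, SE, limma adjusted p = 0.429). The aldo-keto reductase Akr1b8 stood at 25.3, 26.9 and 29.4 FPKM in NC, 24.1, 23.7 and 20.6 in CTX and 29.0, 188 and 36.7 in HBOT. Akr1b10 stood at 24.0, 23.2 and 24.6 FPKM in NC, 27.7, 26.6 and 23.9 in CTX and 28.6, 35.4 and 29.2 in HBOT, and Akr1a1 at 336, 317 and 313, 242, 306 and 319 and 262, 201 and 307.

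The 20 genes of the retinoid pathway, the route of the Aldh1a enzymes, held 13 tested ones, with an unadjusted p under 0.05 for 1 in CTX against NC, 0 in HBOT against CTX and 1 in HBOT against NC, beside 7.98%, 6.09% and 11.9% of all genes. The receptor Rara stood at 11.4, 13.6 and 13.2 FPKM in NC, 25.5, 14.7 and 15.5 in CTX and 21.2, 18.2 and 17.2 in HBOT, NC being below both other groups. Rdh10, which makes retinaldehyde, stood at 4.79, 5.70 and 4.38 FPKM in NC, 3.63, 4.75 and 4.68 in CTX and 4.80, 46.5 and 4.42 in HBOT, high in HBOT replicate 2 alone. Rdh11 stood at 23.3, 18.8 and 13.1 FPKM in NC, 11.05, 21.3 and 21.2 in CTX and 12.1, 12.6 and 12.0 in HBOT, and the retinoic acid carrier Crabp2 at 15.1, 12.9 and 22.6, 22.9, 16.0 and 21.2 and 18.8, 21.2 and 21.5.

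Of 18 regulators and targets of NRF2 and of xenobiotic receptors, which drive many transferase genes, 13 were tested and 0 were called, with unadjusted p under 0.05 for 0, 1 and 1 in the 3 comparisons in the same order (all genes 7.98%, 6.09% and 11.9%). The receptor Ahr stood at 3.53, 3.78 and 3.06 FPKM in NC, 3.61, 2.99 and 2.90 in CTX and 5.30, 9.20 and 4.60 in HBOT, the HBOT libraries above all others (0.78 ± 0.22 against CTX, SE, limma adjusted p = 0.710). The NRF2 target Srxn1 stood at 12.7, 14.8 and 16.6 FPKM in NC, 6.15, 9.56 and 11.6 in CTX and 9.08, 96.3 and 16.6 in HBOT. Hmox1, the haem oxygenase, stood at 34.2, 34.9 and 40.2 FPKM in NC, 24.3, 31.9 and 29.2 in CTX and 40.8, 27.0 and 42.5 in HBOT, and the repressor Bach1 at 6.78, 6.65 and 7.33, 5.10, 6.44 and 5.0 and 7.11, 51.1 and 5.60. Over the 4 lists HBOT replicate 2 was the highest library for 20 of 54 tested genes (37%, against 19.5% of all genes) and the lowest for 19 (35.2%, against 44.1%). By list it was the highest for 4 of 17 glutathione genes, 6 of 11 of the activation list, 2 of 13 retinoid genes and 8 of 13 NRF2 and receptor genes, and the lowest for 6, 3, 7 and 3. The NRF2 target Nqo1 (1.88 FPKM) and Keap1 (12.2), which holds NRF2 back, were at their lowest there, Srxn1 and Bach1 at their highest.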

How the data were processed

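Per the labels' protocols, total RNA of mouse ovary was extracted with TRIzol and polyadenylated RNA was made into libraries. Per the submitters' processing notes, fastp 0.23.4 and the build GRCm39 were used. For the aligner, counter, annotation and read length, the sources used here give nothing. The authors deposited FPKM for 22544 entries, 747 of them assembled loci. Columns were matched to samples by name, with 0 left over. FPKM columns summed to between 394046 and 420058. The columns hold FPKM only, so read depth is unknown and only the scatter among libraries shows the precision.

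Genes with at least 1 FPKM in 3 of 9 libraries were kept, 13338 in all. In R 4.3.3, limma 3.58.1 fitted all 3 groups together on log2(FPKM + 1), using eBayes with a trend and leaving 6 residual degrees of freedom, and the script was tested on simulated data. The log2 scale with a pseudocount of 1 understates the fold change of low genes. The Benjamini-Hochberg adjustment covered every tested gene of a comparison, and an adjusted p under 0.05 was called. Groups were said not to overlap where all libraries of the first group lay above, or all below, those of the second.

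Members and lists were chosen with earlier results of these data known. Values in every library are given for tested members with a mean of at least 20 FPKM or an unadjusted p under 0.05 in any comparison, group means or ranges for other tested members, the highest value for members below the filter, and of each pathway list the 4 genes with the smallest p. Other members pointed out for not overlapping, or for ranking libraries alike, were chosen after their values were seen. Promoter windows came from RefSeq (GRCm38.p6), matched by symbol, and transcripts from GENCODE M21 on GRCm38, matched by Ensembl gene identifier. Since the builds differ from that of the table, their coordinates serve only to place the printed sequences. As alternatives, the fit was repeated with TPM, median-of-ratios or quantile scaling, a filter of 5 FPKM or none, a pseudocount of 0.1, only the groups compared, a replicate block, a robust fit, library weights, each library left out, and HBOT replicate 2 and CTX replicate 1 both left out. Figures were drawn with matplotlib 3.10.9 in Python 3.11.15.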

Additional observations from a re-analysis of the deposited data

How the results depend on the processing

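Under all 20 alternatives 0 members were called in each of the 3 comparisons. Counts of called genes did move. For CTX against NC, 31 genes were called in a fit of the 2 groups compared only, 123 with library weights and 16 with HBOT replicate 2 and CTX replicate 1 both left out, and 0 to 9 with 1 library left out (8 without HBOT replicate 2 and 9 without HBOT replicate 3). For HBOT against CTX, 1 gene was called with no filter, 5 with library weights and 2 without both libraries, and 0 to 1 with 1 left out. For HBOT against NC, 1 was called with no filter, 181 with library weights and 0 to 3 with 1 left out. At an unadjusted p under 0.05, the 1, 4 and 6 members of the 3 comparisons became 6, 8 and 15 with library weights (17%, 10.3% and 23.8% of all genes) and 4, 10 and 13 with both libraries left out (12.4%, 11.7% and 17.4%). A fit of the 2 groups compared gave 4, 2 and 5 (14.2%, 3.49% and 10.5%), and TPM gave 0, 4 and 7 (7.09%, 5.99% and 12.2%). For CTX against NC they were 2 with no filter, a filter of 5 FPKM, median-of-ratios scaling or quantile normalization. The shares of all genes in these 4 fits were 7.82%, 7.74%, 7.86% and 8.17%. The cause was not tested. No scaling moved the median log2 fold change of all genes by over 0.1.

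With replicate number as a block 0 genes and 0 members were called in each comparison, and an unadjusted p under 0.05 was found for 3, 5 and 5 members (7.26%, 5.8% and 10.8% of all genes). Deviations of same-numbered libraries from their group means had correlations from -0.29 to 0.16, 2 of 9 over 0.1. With 3 libraries a group such values cannot decide whether the numbers pair the samples.

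Among the 25 members given in full, to which the lists that follow are limited, fold changes changed sign, none of them called, and for Aldh1b1 and Gstz1 in HBOT against NC they were above 0 only where HBOT replicate 2 was left out. With TPM the log2 fold changes that changed sign were, for CTX against NC Aldh3a2 -0.016, and for HBOT against NC Mgst1 -0.025, Mgst3 -5.8e-04. With median-of-ratios scaling the log2 fold changes that changed sign were, for CTX against NC Aldh3a2 -0.027, Aldh6a1 -0.0070, and for HBOT against CTX Aldh1a1 0.021, and for HBOT against NC Aldh7a1 0.018. With quantile normalization the log2 fold changes that changed sign were, for CTX against NC Aldh3a2 -0.018, and for HBOT against NC Aldh7a1 6.7e-05, Mgst1 -0.016. With library weights the log2 fold changes that changed sign were, for CTX against NC Aldh3b1 0.12, Aldh6a1 -0.026, Gstm7 0.0090, and for HBOT against CTX Aldh1a1 0.19, Aldh1a2 0.17, Gstz1 0.059, Mgst1 -0.039, and for HBOT against NC Aldh1a2 0.032, Aldh7a1 0.14, Aldh9a1 -0.060, Gstk1 0.071, Gstp1 0.11, Mgst1 -0.42. With HBOT replicate 2 and CTX replicate 1 both left out the log2 fold changes that changed sign were, for CTX against NC Aldh3b1 0.47, Aldh4a1 0.032, Aldh6a1 -0.065, Gsta4 -0.064, Gstm2 -0.025, Gstm5 -0.060, Gstm7 0.13, and for HBOT against CTX Aldh1a1 0.34, Aldh1a2 0.14, Aldh6a1 0.031, Gstz1 0.13, Mgst1 -0.055, and for HBOT against NC Aldh1a1 0.090, Aldh1b1 0.041, Aldh7a1 0.14, Aldh9a1 -0.021, Gstk1 0.040, Gstp1 0.15, Gstz1 0.020, Mgst1 -0.35. For CTX against NC, the values with 1 library left out ran, where the sign changed, from Aldh3b1 -0.29 to 0.47, Aldh3a2 -0.016 to 0.045, Aldh4a1 -0.35 to 0.044, Gstm7 -0.23 to 0.13, Aldh6a1 -0.065 to 0.11, Aldh7a1 -0.13 to 0.13, Gsta4 -0.064 to 0.51, Gstm2 -0.025 to 0.63, Gstm5 -0.060 to 0.14, Aldh1b1 -7.4e-04 to 0.41. For HBOT against CTX, the values with 1 library left out ran, where the sign changed, from Aldh2 -0.11 to 0.12, Gstm1 -0.24 to 0.29, Gstp2 -0.52 to 0.022, Aldh1a1 -0.54 to 0.37, Aldh7a1 -0.14 to 0.15, Gsto1 -0.27 to 0.051, Aldh1a2 -0.29 to 0.15, Gstz1 -0.67 to 0.090. For HBOT against NC, the values with 1 library left out ran, where the sign changed, from Mgst1 -0.35 to 0.33, Aldh7a1 -0.13 to 0.14, Aldh9a1 -0.064 to 0.12, Gstp1 -0.32 to 0.16, Mgst3 -0.047 to 0.16, Aldh1a1 -0.82 to 0.090, Aldh1b1 -1.15 to 0.041, Gstk1 -0.19 to 0.040, Gstz1 -0.73 to 0.020. Of the other 14 tested members, leaving out HBOT replicate 2 turned the sign of Gsto2 in HBOT against CTX and of Gsta1, Gstt1 and Gstt2 in HBOT against NC. Leaving out CTX replicate 1 as well turned Gsta3, Gstm6, Aldh18a1 and Aldh5a1 in CTX against NC, Aldh16a1, Gsto2 and Gstt1 in HBOT against CTX, and Gsta1, Gstt1 and Gstt2 in HBOT against NC. Other settings were not followed for these 14.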
